A study of Mus musculus with 11 samples.

Results

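The genes described here encode the integrins, the laminins and 5 further components of the contact between a cell and its basement membrane. They were taken from the deposited expression table by symbol: every gene of an integrin alpha chain, an integrin beta chain or a laminin alpha, beta or gamma chain, together with Nid1, Nid2, Hspg2, Agrn and Dag1. The rule used no measured value, and it found 42 genes among the 20640 in the table. They comprise 18 integrin alpha genes, 8 integrin beta genes, 5 laminin alpha genes, 3 laminin beta genes, 3 laminin gamma genes, 4 genes of proteins that link laminin to other components of the matrix, and the dystroglycan gene.

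Bulk RNA-seq was run on 11 libraries of YFP+ cells sorted from mouse limb muscle. All mice carried Pax7-CreERT2, which puts a tamoxifen-inducible Cre under the control of the muscle stem cell gene Pax7, and Rosa-YFP. All received oral tamoxifen (240 mg/kg on 5 days) at 12 to 14 weeks of age, so that cells with active Pax7 at that age, and their descendants, were marked. Cells bearing Sca-1, CD31 or CD45, markers of mesenchymal, endothelial and blood cells, were sorted out. In geriatric mice (over 28 months) a gate on surface VCAM1 split the YFP+ cells into VCAM1-negative cells (3 libraries), VCAM1-low cells (2 libraries) and VCAM1-high cells (3 libraries). The YFP+ cells of middle-aged mice (aged 10 to 14 months on the labels of each sample and 12 to 14 months where extraction is described) gave 3 libraries whose titles name no VCAM1 gate. Gate names follow the sample titles, and the design text of the series names the lower gates differently. Any difference between a gated geriatric group and the middle-aged group thus mixes age with gating and with the interval since tamoxifen. Nothing in the labels says which libraries came from separate mice, so the p-values measure the spread between libraries, which may in part be technical.

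Muscle stem cells, also called satellite cells, lie between the membrane of the muscle fibre and the basal lamina that surrounds it. Laminins are trimers of an alpha, a beta and a gamma chain that form the sheet to which cells attach, and nidogens, perlecan (Hspg2) and agrin tie that sheet to type IV collagen and to the cell surface. Integrins are receptors made of an alpha and a beta chain, and the pair encoded by Itga7 and Itgb1 is, with dystroglycan (Dag1), the main laminin receptor of skeletal muscle. The laminin encoded by Lama2 with a beta chain and Lamc1 is the principal laminin of adult muscle, and loss of Lama2 causes a congenital muscular dystrophy.

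Values are RPKM, reads scaled by the length of the gene and by the mapped reads of the library, as the authors deposited them. Estimated depth ran over 20.0 to 29.9 Mreads (M for mega) per library, at which 1 read in a gene of 1 kilobase is worth 0.0334 to 0.0501 RPKM. The summed RPKM of 12 satellite cell markers, Vcam1 among them, was 1421 to 2445 in VCAM1-negative, 1400 to 2228 in VCAM1-low, 1729 to 2958 in VCAM1-high and 2656 to 3523 in middle-aged libraries, so the labelled cell type was present in each group. Transcripts of other cell types were present as well. The sum of 11 myofibre markers was 635, 6548 and 5232 in the VCAM1-negative libraries and at most 300.3 in any other library. Endothelial markers (12 genes) summed to 233 in middle-aged replicate 3 against 16.6 and 26.3 in the other 2 middle-aged libraries, and macrophage markers (10 genes) summed to 859.95 in VCAM1-high replicate 3 against 2.79 and 16.5 in the other 2 VCAM1-high libraries. Middle-aged replicate 3 and VCAM1-high replicate 3 thus stood apart from their groups. Calls among the 42 genes with 1 or both of them left out are given for some of the comparisons between 2 groups. In bulk RNA, fewer cells of a type and less RNA per cell cannot be told apart.

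Across all libraries the highest levels belonged to Dag1 and Itgb1, which ranked 346 and 444 among all genes by mean RPKM. Itga7 ranked 1320, Itgb5 ranked 1964 and Lamb2 ranked 2702. At the other end, 19 of the 42 genes had a mean below 1 RPKM. Of the 42 genes, 29 reached 1 RPKM in at least 2 libraries and entered the test, among them 10 of 18 integrin alpha genes, 5 of 8 integrin beta genes, 4 of 5 laminin alpha genes, 2 of 3 laminin beta genes, and each of the laminin gamma, linker and dystroglycan genes. The 13 genes under this limit were Itgb4, Itgal, Itgb6, Itga10, Itga9, Itgb3, Itgad, Lamb3, Itga2, Itgae, Lama1, Itga4 and Itgax, and they were not tested. Where any of them is described below, it is by its level alone.

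**Figure D1:**
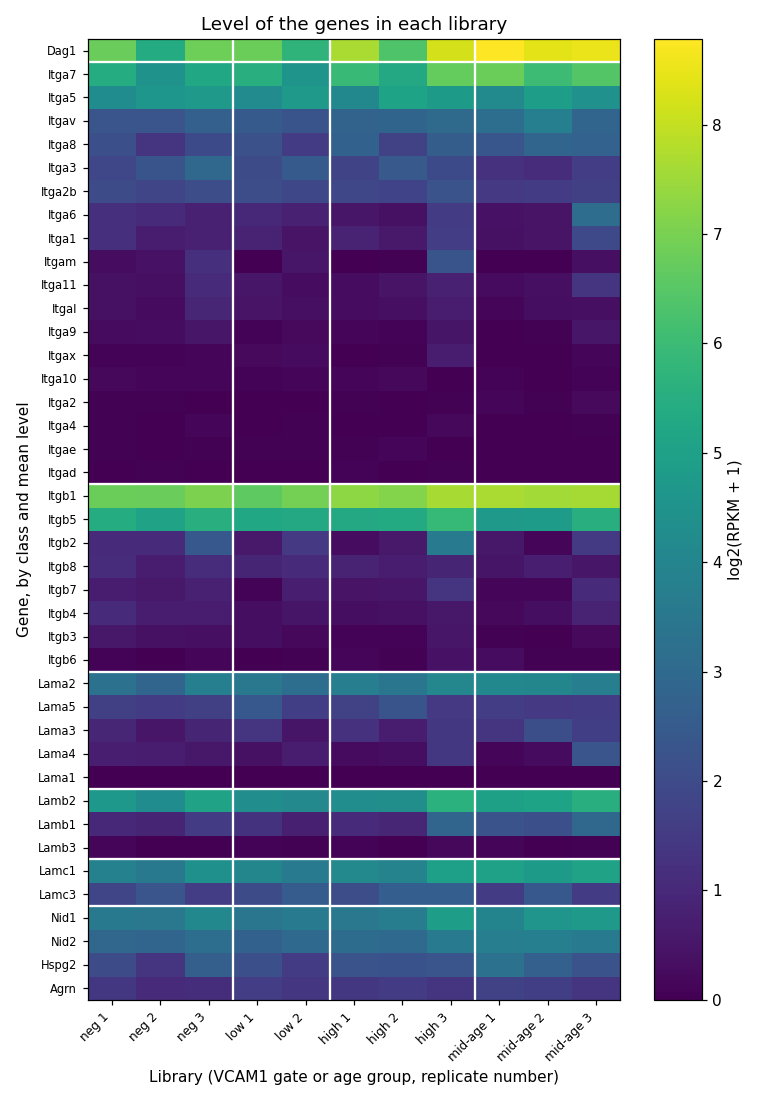
Level of 41 genes as log2(RPKM + 1) (colour) in each of the 11 libraries (columns, VCAM1-negative, VCAM1-low, VCAM1-high and middle-aged), with genes grouped by class and ordered by mean level. Dag1, Itgb1, Itga7 and Itgb5 are bright in every library, while Itga6, Lama4, Itgb2 and Itgam are brightest in middle-aged replicate 3 or VCAM1-high replicate 3.

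Of the comparisons between 2 groups, that of VCAM1-negative geriatric cells with middle-aged cells had the most calls: 8 of the 29 tested genes (27.6%) passed at an adjusted p under 0.05 (limma on log2(RPKM + 1), Benjamini-Hochberg over 11568 genes), against 14.4% of all genes tested. The 6 that fell encode dystroglycan, both chains of the muscle laminin receptor, Itgav, Lamc1 and Nid2, and they are 6 of 29 beside 7.38% of all genes lower. The 2 that rose, Itga3 among them, stand beside 7.06% of all genes higher. The median log2 difference of the 29 genes was -0.33, and that of all genes tested was -0.02.

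Dag1 encodes both subunits of dystroglycan, the laminin receptor that connects the basement membrane through the membrane to dystrophin. Dag1 had 109, 41.2 and 114 RPKM in the VCAM1-negative libraries, 112 and 51.4 RPKM in the VCAM1-low libraries, 202.5, 82.2 and 299.9 RPKM in the VCAM1-high libraries, and 439.9, 339.8 and 365 RPKM in the middle-aged libraries. Each geriatric library lay below each middle-aged library, and within each geriatric gate replicate 2 was the lowest. The mean was 88.1 ± 40.7 RPKM in VCAM1-negative cells and 382 ± 52.0 RPKM in middle-aged cells (SD, n = 3 each), a ratio of 0.231. The log2 difference was -2.23 ± 0.50 (SE, limma adjusted p = 0.0197).

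Itgb1 encodes the beta chain shared by most integrins of muscle cells. Itgb1 had 112, 109.9 and 132 RPKM in the VCAM1-negative libraries, 95.5 and 123 RPKM in the VCAM1-low libraries, 157, 142 and 197 RPKM in the VCAM1-high libraries, and 201, 189.7 and 194 RPKM in the middle-aged libraries. VCAM1-negative and VCAM1-low libraries all lay below each middle-aged library, while VCAM1-high replicate 3 lay among them. The mean was 118 ± 12.4 RPKM in VCAM1-negative cells and 195 ± 5.81 RPKM in middle-aged cells (SD, n = 3 each), with a log2 difference of -0.72 ± 0.18 (SE, limma adjusted p = 0.0257).

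Itga7 encodes the alpha chain that pairs with the Itgb1 product to bind laminin and is a surface marker of satellite cells. Itga7 had 42, 21.2 and 37.4 RPKM in the VCAM1-negative libraries, 44.3 and 22.2 RPKM in the VCAM1-low libraries, 61.6, 38.7 and 103 RPKM in the VCAM1-high libraries, and 110.3, 63.4 and 86.2 RPKM in the middle-aged libraries. The VCAM1-negative values all lay below the middle-aged values, and replicate 2 was the lowest of every group. The log2 difference was -1.36 ± 0.39 (SE, limma adjusted p = 0.0426), and the ratio of means was 0.387.

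Itgav encodes the alpha chain of receptors for vitronectin, fibronectin and osteopontin, which also bind latent TGF-beta. Itgav had 4.02, 4.03 and 5.42 RPKM in the VCAM1-negative libraries, 4.67 and 3.88 RPKM in the VCAM1-low libraries, 5.99, 6.10 and 7.12 RPKM in the VCAM1-high libraries, and 7.94, 12.8 and 6.36 RPKM in the middle-aged libraries. The VCAM1-negative libraries lay below those of the VCAM1-high and of the middle-aged group, and the highest value was that of middle-aged replicate 2. Its log2 difference between VCAM1-negative and middle-aged cells was -0.83 ± 0.23 (SE, limma adjusted p = 0.0372). Exons of Itgav overlap those of Gm13684 on the opposite strand over 634 bases in a GENCODE annotation. Gm13684 has no value among the deposited genes. Because the library kit does not mark strand, reads of Itgav and Gm13684 in that stretch cannot be told apart.

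Lamc1 encodes the gamma chain found in most laminins. Lamc1 had 13.7, 10.8 and 20.1 RPKM in the VCAM1-negative libraries, 15.4 and 11.7 RPKM in the VCAM1-low libraries, 16.7, 14.4 and 30.3 RPKM in the VCAM1-high libraries, and 31.6, 26.3 and 32.0 RPKM in the middle-aged libraries. VCAM1-high replicate 3 lay within the middle-aged range, and the other 7 geriatric libraries lay below it. Its log2 difference between VCAM1-negative and middle-aged cells was -1.0 ± 0.28 (SE, limma adjusted p = 0.0415).

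Nid2 encodes one of the nidogens that bind laminin gamma chains and type IV collagen. Nid2 had 6.50, 6.24 and 8.13 RPKM in the VCAM1-negative libraries, 5.65 and 6.95 RPKM in the VCAM1-low libraries, 7.70, 7.04 and 11.7 RPKM in the VCAM1-high libraries, and 12.5, 12.9 and 11 RPKM in the middle-aged libraries. The log2 difference was -0.73 ± 0.20 (SE, limma adjusted p = 0.0372) between VCAM1-negative and middle-aged cells, whose values did not overlap. In a GENCODE annotation the exons of Nid2 overlap those of Rtraf on the opposite strand over 437 bases, and Rtraf reached 57.6 RPKM. The library kit does not mark strand, so reads of the 2 genes in that stretch cannot be told apart.

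Itga3, which rose, was present at a few RPKM. It encodes an alpha chain that pairs with the Itgb1 product to bind laminins of epithelial type. Itga3 had 2.64, 3.88 and 6.58 RPKM in the VCAM1-negative libraries, 3.07 and 4.56 RPKM in the VCAM1-low libraries, 2.46, 4.51 and 2.89 RPKM in the VCAM1-high libraries, and 1.38, 1.16 and 2.03 RPKM in the middle-aged libraries. Each of the 8 geriatric libraries lay above each of the 3 middle-aged libraries, and the log2 difference between VCAM1-negative and middle-aged cells was 1.04 ± 0.29 (SE, limma adjusted p = 0.0378).

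**Figure D2:**
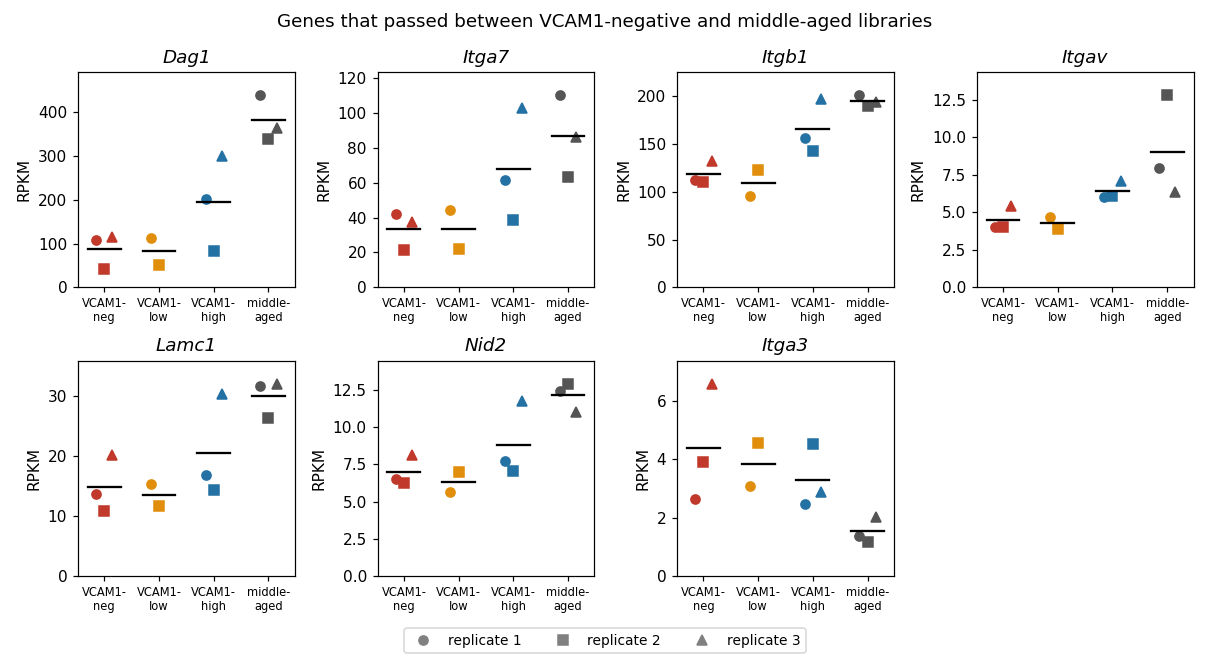
RPKM (vertical axes, each starting at 0) of 7 genes that passed between VCAM1-negative and middle-aged libraries, in every library of the 4 groups; symbols give the replicate number and black lines the group mean. Dag1 runs over 41.2 to 114 RPKM in VCAM1-negative and 339.8 to 439.9 RPKM in middle-aged libraries, and Itga3 has every geriatric library above the middle-aged ones.

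The 8 calls lay close to the threshold. Leaving out a library of either compared group lowered their number, to 3 without VCAM1-negative replicate 1, 0 without VCAM1-negative replicate 2, 3 without VCAM1-negative replicate 3, 0 without middle-aged replicate 1, 1 without middle-aged replicate 2 and 2 without middle-aged replicate 3, and it was 4 without VCAM1-high replicate 1. Over all genes tested, leaving out 1 library gave 340 to 1821 calls in this comparison, against 1671 with all libraries. Dag1 kept its call in 9 of 11 omissions, with an adjusted p of 0.0749 without VCAM1-negative replicate 2 and 0.0651 without middle-aged replicate 1. Itgb1 and Itga3 kept theirs in 6 of 11, Nid2, Itgav and Lamc1 in 5, and Itga7 in 4, and none of these signs changed. With VCAM1-high replicate 3 and middle-aged replicate 3 both left out 7 genes passed. Sums of myofibre markers differed between these groups (635 to 6548 RPKM in VCAM1-negative and 142 to 300.3 RPKM in middle-aged libraries, no marker at 0, 9 of 10 tested markers higher), and 3 of 12 satellite cell markers were lower. One of these is Vcam1, the gene of the gate, without which the satellite cell sum was 1350 to 2397 RPKM in VCAM1-negative and 2319 to 3293 RPKM in middle-aged libraries. The 2 erythroid markers summed to 149 to 510.2 RPKM in VCAM1-negative and 4.36 to 128 RPKM in middle-aged libraries. Of 11 fibro-adipogenic progenitor markers 1 was higher and 2 were lower, and 1 of 6 tested Schwann cell markers was lower. Higher were 1 of 7 pericyte and smooth muscle, 1 of 6 tenocyte and 1 of 1 T and B cell markers tested. No tested endothelial, macrophage or neutrophil marker passed. The 6 neutrophil markers summed to 2.34 to 19.6 RPKM in VCAM1-negative and 0.0424 to 0.975 RPKM in middle-aged libraries. Up to 5 of them were at 0 in a middle-aged library and up to 1 in a VCAM1-negative one. The part of these cell types in the 8 differences was not tested.

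Promoter sequences are shown for the genes that passed and have an entry in RefSeq's promoter table, so that those that fell and those that rose can be read side by side. Of the 8 genes 4 had one, Dag1, Itgb1 and Itgav among those that fell and Itga3 among those that rose. Each line gives the 250 bases before the start of transcription on the gene's own strand, 5′ to 3′, on build GRCm38.p6, and where the table lists several starts the one nearest the 5′ end of the gene model was taken. Capitals mark the GC box GGGCGG, the core of the site bound by Sp-family factors, searched on both strands.
Dag1: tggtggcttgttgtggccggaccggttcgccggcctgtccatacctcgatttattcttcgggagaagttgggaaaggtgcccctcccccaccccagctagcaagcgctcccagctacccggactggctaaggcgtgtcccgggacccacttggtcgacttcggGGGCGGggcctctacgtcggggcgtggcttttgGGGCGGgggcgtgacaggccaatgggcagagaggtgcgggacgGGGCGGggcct
Itgb1: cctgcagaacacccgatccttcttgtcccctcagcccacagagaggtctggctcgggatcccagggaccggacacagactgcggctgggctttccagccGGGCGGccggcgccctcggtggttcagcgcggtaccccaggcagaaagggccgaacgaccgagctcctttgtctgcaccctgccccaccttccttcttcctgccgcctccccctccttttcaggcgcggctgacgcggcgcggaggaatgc
Itgav: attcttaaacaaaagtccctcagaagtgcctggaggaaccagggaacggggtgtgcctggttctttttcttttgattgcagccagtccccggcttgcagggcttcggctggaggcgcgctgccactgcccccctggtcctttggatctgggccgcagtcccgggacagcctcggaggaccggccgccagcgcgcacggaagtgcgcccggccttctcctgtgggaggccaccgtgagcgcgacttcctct
Itga3: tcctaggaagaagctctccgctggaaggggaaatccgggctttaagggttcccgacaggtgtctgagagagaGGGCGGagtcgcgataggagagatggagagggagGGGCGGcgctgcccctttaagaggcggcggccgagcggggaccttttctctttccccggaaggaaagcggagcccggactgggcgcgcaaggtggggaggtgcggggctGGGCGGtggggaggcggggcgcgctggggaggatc

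The Dag1 window is chr9:108263959-108264208 on the minus strand, that of Itgb1 is chr8:128685404-128685653 on the plus strand, that of Itgav is chr2:83724147-83724396 on the plus strand and that of Itga3 is chr11:95076715-95076964 on the minus strand. Dag1, which fell, and Itga3, which rose, each held 3 GC boxes, Itgb1 held 1, and the Itgav window held no match. The motif was present in 32.7% of the 32851 windows of this length in the table. Guanine and cytosine made up 67.6% of the Dag1 and Itga3 windows, 68.0% of that of Itgb1 and 64.4% of that of Itgav, against a median of 52.4% over all windows.

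Lamb1, Lama3, Itga8 and Lama2 did not pass between VCAM1-negative and middle-aged cells. Lamb1, the beta chain that completes the main laminin trimer of muscle with the Lama2 and Lamc1 products, had 1.04, 0.870 and 1.96 RPKM in the VCAM1-negative libraries, 1.42 and 0.703 RPKM in the VCAM1-low libraries, 1.13, 0.925 and 6.33 RPKM in the VCAM1-high libraries, and 3.70, 3.40 and 6.78 RPKM in the middle-aged libraries. Its log2 difference was -1.28 ± 0.45 (SE, limma adjusted p = 0.0793), and without VCAM1-high replicate 3 the adjusted p was 0.0163. That library is in neither compared group. Lamb1 passed in this 1 of 11 omissions only, and the highest adjusted p among them was 0.215. Lama3, an alpha chain of epithelial laminins, had 0.932, 0.456 and 0.884 RPKM in the VCAM1-negative libraries, 1.51 and 0.406 RPKM in the VCAM1-low libraries, 1.38, 0.576 and 1.66 RPKM in the VCAM1-high libraries, and 1.54, 3.35 and 2.07 RPKM in the middle-aged libraries (log2 difference -0.89 ± 0.30, SE, limma adjusted p = 0.0642). Both genes had VCAM1-negative values that did not overlap the middle-aged ones. Itga8, whose product binds the matrix protein nephronectin, had 3.42, 1.55 and 2.92 RPKM in the VCAM1-negative libraries, 3.48 and 1.89 RPKM in the VCAM1-low libraries, 5.63, 2.34 and 4.98 RPKM in the VCAM1-high libraries, and 4.09, 6.35 and 5.79 RPKM in the middle-aged libraries (limma adjusted p = 0.0859).

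Lama2 itself, the alpha chain of the muscle laminin, had 8.59, 6.26 and 12.9 RPKM in the VCAM1-negative libraries, 10.4 and 7.93 RPKM in the VCAM1-low libraries, 12.5, 9.95 and 15.9 RPKM in the VCAM1-high libraries, and 16.0, 15.5 and 12.4 RPKM in the middle-aged libraries. The VCAM1-negative and middle-aged values overlapped, and the log2 difference was -0.65 ± 0.25 (SE, limma adjusted p = 0.101). Counted over all 29 tested genes, 12 (41.4%) had VCAM1-negative libraries that did not overlap the middle-aged ones, 3 higher and 9 lower, beside 39.0% of all genes tested (18.7% higher and 20.3% lower). Itga2b and Itga3 were among the higher ones. Itga2b, known as the alpha chain of the platelet fibrinogen receptor, had 3.16, 2.60 and 3.25 RPKM in the VCAM1-negative libraries, 3.26 and 2.74 RPKM in the VCAM1-low libraries, 2.65, 2.37 and 3.77 RPKM in the VCAM1-high libraries, and 1.75, 1.98 and 2.20 RPKM in the middle-aged libraries (limma adjusted p = 0.125). Its partner Itgb3 was at most 0.474 RPKM in any library.

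Other chains had levels that overlapped between these groups. Itga5, the alpha chain of the fibronectin receptor, had 18.2, 23.7 and 25.6 RPKM in the VCAM1-negative libraries, 17.8 and 25.2 RPKM in the VCAM1-low libraries, 16.3, 33.5 and 26.5 RPKM in the VCAM1-high libraries, and 17.0, 29.6 and 21.0 RPKM in the middle-aged libraries. Itgb5, which pairs with the Itgav product, had 42.6, 32.2 and 46.0 RPKM in the VCAM1-negative libraries, 36.8 and 38.0 RPKM in the VCAM1-low libraries, 38.5, 40.1 and 57.4 RPKM in the VCAM1-high libraries, and 26.1, 27.4 and 45.9 RPKM in the middle-aged libraries. Neither passed between VCAM1-negative and middle-aged cells, and the log2 difference of Itga5 between VCAM1-negative and middle-aged cells was 0.02 ± 0.28 (SE). Itgb8, which activates latent TGF-beta together with the Itgav product, had 1.15, 0.596 and 1.17 RPKM in the VCAM1-negative libraries, 0.869 and 1.04 RPKM in the VCAM1-low libraries, 0.791, 0.572 and 0.898 RPKM in the VCAM1-high libraries, and 0.419, 0.681 and 0.441 RPKM in the middle-aged libraries.

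Lamb2, the beta chain enriched in the basement membrane of the neuromuscular junction, had 24.6, 18.2 and 32.2 RPKM in the VCAM1-negative libraries, 19 and 16.4 RPKM in the VCAM1-low libraries, 19, 19.3 and 47.6 RPKM in the VCAM1-high libraries, and 31.0, 33.5 and 44.0 RPKM in the middle-aged libraries. Its highest value was that of VCAM1-high replicate 3, and the same library had the highest Nid1. Nid1, the other nidogen, had 10.7, 10.6 and 16.3 RPKM in the VCAM1-negative libraries, 9.85 and 11.5 RPKM in the VCAM1-low libraries, 10.5, 12.4 and 29 RPKM in the VCAM1-high libraries, and 14.7, 22.9 and 26.1 RPKM in the middle-aged libraries. Hspg2, which encodes the heparan sulfate proteoglycan perlecan, had 3.06, 1.51 and 5.37 RPKM in the VCAM1-negative libraries, 3.38 and 1.85 RPKM in the VCAM1-low libraries, 3.71, 3.67 and 4.0 RPKM in the VCAM1-high libraries, and 8.67, 5.44 and 3.73 RPKM in the middle-aged libraries. None of these 3 passed in a comparison between 2 groups without a replicate block.

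The remaining linker and laminin genes were low. Agrn encodes agrin, which clusters acetylcholine receptors at the neuromuscular junction and binds dystroglycan. Agrn had 1.71, 1.05 and 1.24 RPKM in the VCAM1-negative libraries, 2.01 and 1.59 RPKM in the VCAM1-low libraries, 1.69, 1.94 and 1.53 RPKM in the VCAM1-high libraries, and 2.33, 2.12 and 1.52 RPKM in the middle-aged libraries. Lama5, an alpha chain of laminins that has been described in the niche of activated satellite cells, had 2.15, 1.98 and 2.19 RPKM in the VCAM1-negative libraries, 4.35 and 2.07 RPKM in the VCAM1-low libraries, 2.22, 3.86 and 1.78 RPKM in the VCAM1-high libraries, and 2.02, 1.74 and 1.96 RPKM in the middle-aged libraries. Lamc3 lay between 1.94 and 5.20 RPKM in all libraries, and its groups overlapped. Lama1, the alpha chain of embryonic laminins, was at most 0.0188 RPKM, and Lamb3, a beta chain of epithelial laminins, was at most 0.142 RPKM.

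VCAM1, the protein on which the geriatric cells were gated, is itself a ligand of integrins that hold the Itga4 or Itga9 chain. Vcam1 RNA was 122, 70.4 and 48.6 RPKM in the VCAM1-negative libraries, 177 and 115 RPKM in the VCAM1-low libraries, 418, 188 and 263 RPKM in the VCAM1-high libraries, and 336, 344 and 230.1 RPKM in the middle-aged libraries. Itga4 was at most 0.136 RPKM and Itga9 at most 0.447 RPKM, both below the limit for the test. Itgb7, the alternative beta partner of the Itga4 chain, lay between 0.0693 and 1.54 RPKM. The highest Itga4 and Itgb7 values were those of VCAM1-high replicate 3, and the highest Itga9 value was that of middle-aged replicate 3.

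In VCAM1-high geriatric cells against middle-aged cells, none of the 29 genes passed in limma without a replicate block (4 at an unadjusted p under 0.05), beside 0.605% of all genes tested, of which 1724 had an unadjusted p under 0.05. The libraries of 4 genes did not overlap, 3 higher (Itga2b and Itga3 among them) and Dag1 lower in VCAM1-high cells, beside 20.2% of all genes (13.8% higher and 6.36% lower). Dag1 averaged 195 ± 109 RPKM in VCAM1-high cells and 382 ± 52.0 RPKM in middle-aged cells (SD, n = 3 each), and its log2 difference was -1.14 ± 0.50 (SE, limma adjusted p = 0.318). Itga3 had a log2 difference of 0.75 ± 0.29 (adjusted p = 0.257) and Nid2 of -0.45 ± 0.20 (adjusted p = 0.331), each with its SE from limma.

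Libraries of the VCAM1-high and middle-aged groups with the same replicate number deviated together (correlations 0.211, 0.332 and 0.554 for replicates 1, 2 and 3). The 2 groups are mice of different ages, so a shared number cannot mark the same mouse here, and the labels do not say what it marks. With the replicate number as a block in all 11 libraries Dag1 passed (limma adjusted p = 0.0436), beside 6.98% of all genes (2.81% lower). This call held without VCAM1-high replicate 3 (adjusted p = 0.0324) and without middle-aged replicate 3 (adjusted p = 0.0163), and not without any of the other 9 libraries, of which VCAM1-high replicate 2 gave the highest adjusted p (0.233) and middle-aged replicate 1 the lowest (0.0514). The number of genes called under the block was 5 without VCAM1-high replicate 3 and 2 without middle-aged replicate 3. Without the block, leaving out VCAM1-high replicate 3 gave 1 call.

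Between the gates of geriatric muscle, VCAM1-negative against VCAM1-high cells, none of the 29 genes passed in limma without a block, beside 0% of all genes tested (2 of the 29 and 755 of all genes had an unadjusted p under 0.05). Libraries with the same number deviated together in these groups, and when it was fitted as a block over the 8 geriatric libraries Dag1 and Itga7 fell. Their log2 differences were -1.08 ± 0.13 (SE, limma adjusted p = 0.0126, against 0.763 without the block) and -0.94 ± 0.17 (SE, limma adjusted p = 0.0310, against 0.709 without the block). These are 2 of 29 genes, beside 4.17% of all genes (3.26% lower). With the block in all 11 libraries no gene of the 29 passed, 5 had an unadjusted p under 0.05, and 0.562% of all genes passed.

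Within replicate numbers 1, 2 and 3, Dag1 in VCAM1-negative libraries was 0.536, 0.501 and 0.382 times its level in VCAM1-high libraries. The same ratios for Itga7 were 0.681, 0.547 and 0.363, and those for Itgb1 were 0.716, 0.773 and 0.674. These 3 genes were lower in the VCAM1-negative library of each number. In all, 11 of the 29 genes (37.9%) were lower in 3 of 3 numbers, beside 30.6% of all genes tested, and 1, Itgb8, was higher in 3 of 3, beside 13.4% of all genes. Lama2, Lamc1 and Nid2 were among the 11, with ratios of 0.689, 0.629 and 0.815 for Lama2, 0.817, 0.753 and 0.664 for Lamc1 and 0.845, 0.886 and 0.693 for Nid2. Taken as groups, the VCAM1-negative libraries of Itgav and Itgb1 did not overlap the VCAM1-high ones, both lower, beside 11.4% of all genes (8.08% lower). The blocked calls of Dag1 and Itga7 held without VCAM1-high replicate 1 or 3 and without VCAM1-negative replicate 1 or 3, and both were lost without VCAM1-high replicate 2 (adjusted p 0.0726 and 0.125), VCAM1-negative replicate 2 (0.0676 and 0.101), VCAM1-low replicate 1 (0.0661 and 0.0914) or VCAM1-low replicate 2 (0.0642 and 0.0891). Myofibre markers summed to 635, 6548 and 5232 RPKM in VCAM1-negative and 54.1 to 127 RPKM in VCAM1-high libraries. Under the block in the 8 geriatric libraries 9 of 10 tested myofibre markers were higher, beside 0.908% of all genes. Of the 12 satellite cell markers, which include Vcam1, 3 were lower, as were 3 of 11 fibro-adipogenic progenitor markers, beside 3.26% of all genes. The part of these cell types in the differences was not tested.

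**Figure D3:**
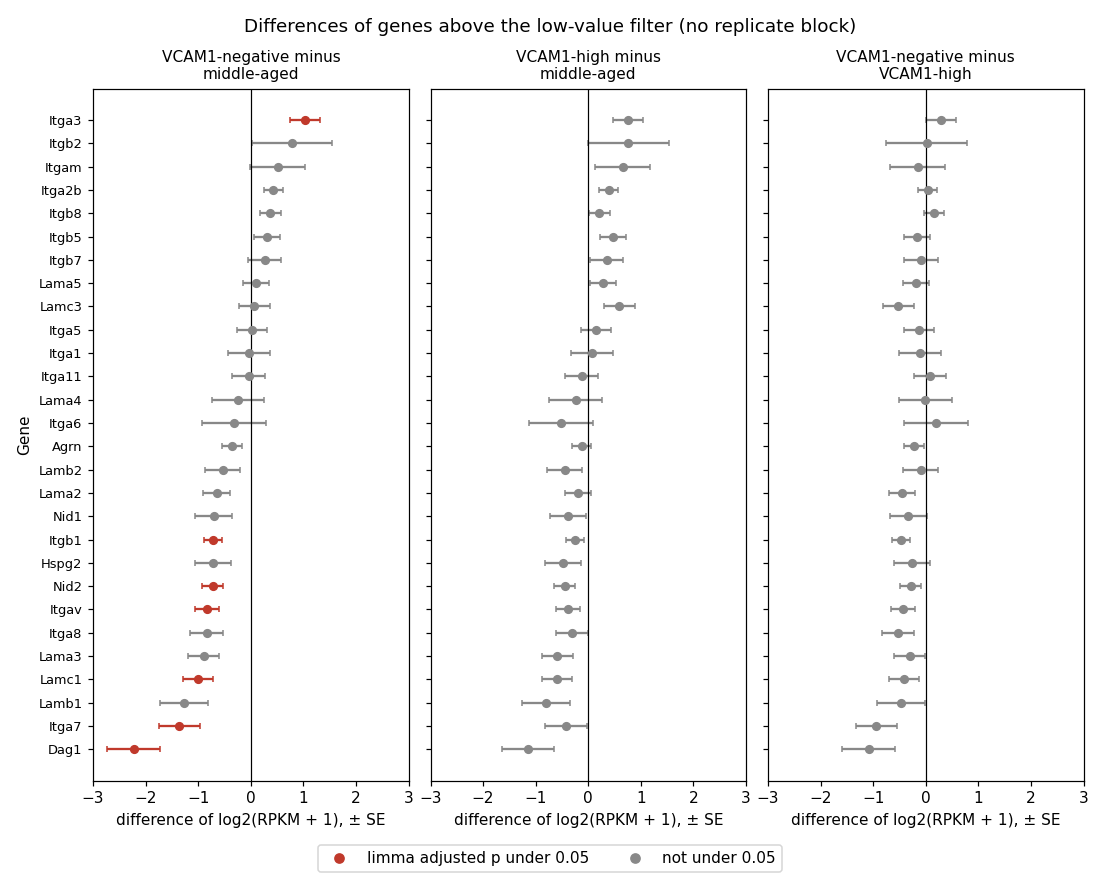
Log2 difference (horizontal axis, points with SE from limma, no replicate block) of 28 tested genes in 3 comparisons, ordered by the difference between VCAM1-negative and middle-aged cells; red points passed at an adjusted p under 0.05. The 7 red points are all in the left panel, with Dag1 at -2.23 and Itga3 at 1.04.

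VCAM1-low cells were represented by 2 libraries. In them, against middle-aged cells, Itgb1 fell (log2 difference -0.84 ± 0.20, SE, limma adjusted p = 0.0430) and Dag1 fell (-2.30 ± 0.56, SE, adjusted p = 0.0469), 2 of 29 beside 4.11% of all genes, with 1.88% of all genes lower. Beside these calls, 2 of 11 fibro-adipogenic and 1 of 12 satellite cell markers were lower, and the 2 erythroid markers summed to 409 and 508 RPKM in VCAM1-low and 4.36 to 128 RPKM in middle-aged libraries. Their part in the 2 calls was not tested. No call remained without VCAM1-low replicate 1 or 2, VCAM1-high replicate 1, VCAM1-negative replicate 1 or 3, or any middle-aged library. There was 1 without VCAM1-negative replicate 2, and there were 6 without VCAM1-high replicate 3. Over all genes tested, leaving out 1 library gave 1 to 802 calls in this comparison, against 475 with all libraries. None of the 29 passed between VCAM1-low and VCAM1-high cells or between VCAM1-negative and VCAM1-low cells, beside 0% of all genes in each, and 2 and 0 had an unadjusted p under 0.05. Over all 4 groups together the F test called none of the 29 (9 at an unadjusted p under 0.05), beside 3.32% of all genes. With the 3 geriatric groups averaged and set against the middle-aged group, the same 8 genes as above passed (2 higher and 6 lower), beside 15.8% of all genes (8.04% higher and 7.81% lower). That contrast shares the VCAM1-negative and middle-aged libraries with the first comparison, so it is no separate evidence.

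Because RPKM is scaled by gene length, chains of one class can be set beside each other. The alpha and beta laminin classes were each led by a single gene. Lama2 made up 60.8% to 81.2% of the laminin alpha RPKM over all libraries, with its lowest share in middle-aged replicate 3, where Lama4 reached 19.3%. Lamb2 made up 86.6% to 95.7% of the laminin beta RPKM. Among integrin beta genes Itgb1 made up 70.5% to 75.6% in VCAM1-negative, 71.1% to 74.5% in VCAM1-low, 73.1% to 79.6% in VCAM1-high and 79.5% to 88.0% in middle-aged libraries, and Itgb5 made up 22.2% to 26.7%, 23.0% to 27.4%, 19.5% to 21.7% and 11.4% to 18.8% in the same order of groups. Among integrin alpha genes Itga7 led in 9 of the 11 libraries, and Itga5 led in VCAM1-negative replicate 2 and VCAM1-low replicate 2. These shares are descriptions and carry no test.

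**Figure D4:**
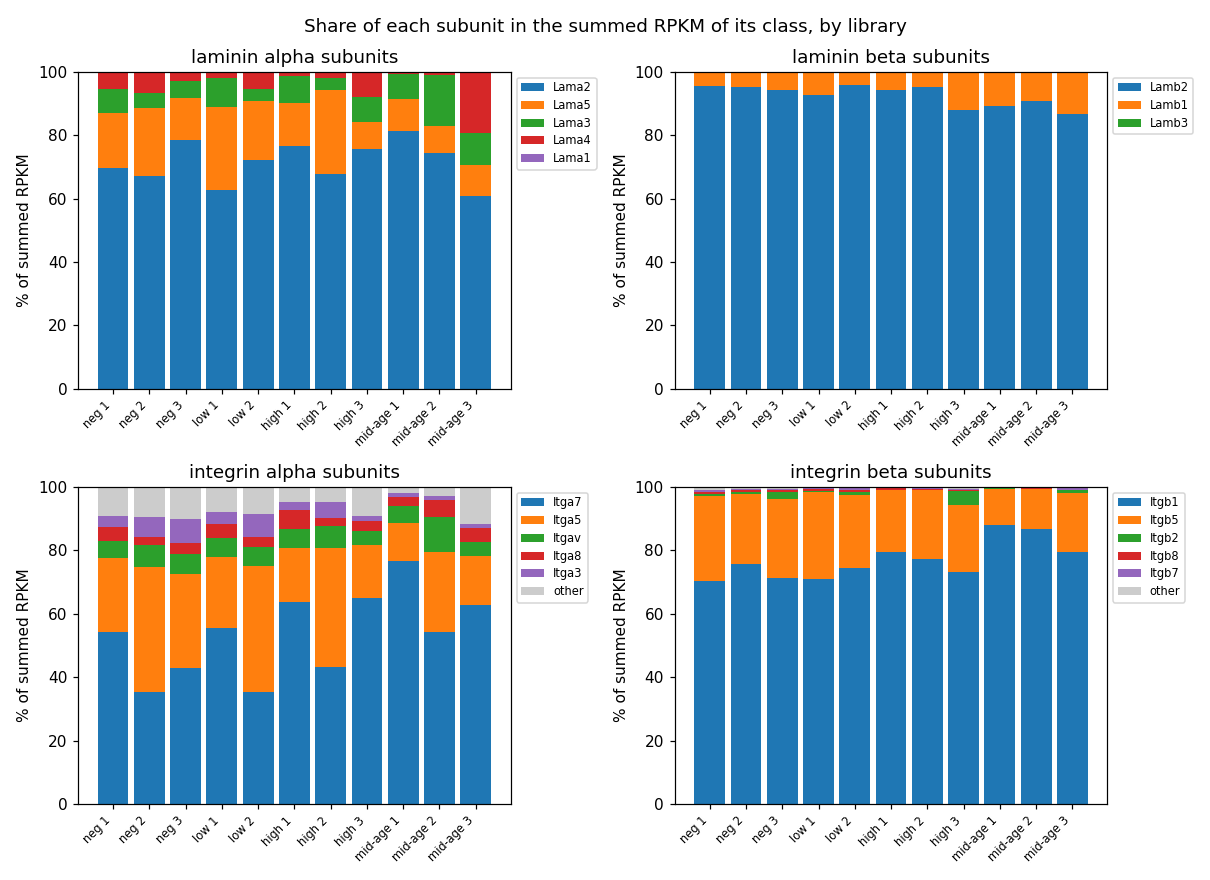
Share of each gene in the summed RPKM of its class (vertical axes, percent) in each of the 11 libraries, for laminin alpha, laminin beta, integrin alpha and integrin beta genes. The Itgb5 band is 19.5% to 27.4% in geriatric libraries and 11.4% to 18.8% in middle-aged libraries, and the Lama4 band is widest in middle-aged replicate 3.

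A further set of genes was high in single libraries, beside markers of other cell types. Itga6, an alpha chain of laminin receptors also abundant in endothelium and epithelium, had 1.29, 1.10 and 0.766 RPKM in the VCAM1-negative libraries, 1.01 and 0.758 RPKM in the VCAM1-low libraries, 0.436, 0.322 and 1.98 RPKM in the VCAM1-high libraries, and 0.359, 0.395 and 7.88 RPKM in the middle-aged libraries. Lama4, the alpha chain of endothelial laminin, had 0.650, 0.618 and 0.496 RPKM in the VCAM1-negative libraries, 0.322 and 0.590 RPKM in the VCAM1-low libraries, 0.207, 0.259 and 1.67 RPKM in the VCAM1-high libraries, and 0.123, 0.208 and 3.92 RPKM in the middle-aged libraries. Middle-aged replicate 3 was highest for both, as it was for Itga1, a collagen receptor chain, which had 1.35, 0.594 and 0.749 RPKM in the VCAM1-negative libraries, 0.806 and 0.395 RPKM in the VCAM1-low libraries, 0.794, 0.523 and 2.0 RPKM in the VCAM1-high libraries, and 0.322, 0.382 and 2.82 RPKM in the middle-aged libraries. The summed endothelial markers were 72.0, 105 and 35.7 RPKM in the VCAM1-negative libraries, 39.3 and 66.1 RPKM in the VCAM1-low libraries, 15.2, 32.8 and 82.6 RPKM in the VCAM1-high libraries, and 16.6, 26.3 and 233 RPKM in the middle-aged libraries, with the same library highest. At most 1 of the 12 endothelial markers was at 0 in any library. Middle-aged replicate 3 was also the highest library for tenocyte markers (6 genes, 178 against 16.6 and 23.2 RPKM in the other middle-aged libraries). The same held for fibro-adipogenic progenitor markers (11 genes, 1270 against 531 and 623 RPKM). The part of these cell types in the levels of Itga6, Lama4 and Itga1 was not tested.

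Itgb2, Itgam and Itgax, chains of leukocyte integrins, were highest in another library. Itgb2, the beta chain of leukocyte integrins, had 1.06, 1.11 and 4.39 RPKM in the VCAM1-negative libraries, 0.516 and 1.75 RPKM in the VCAM1-low libraries, 0.226, 0.501 and 11.3 RPKM in the VCAM1-high libraries, and 0.492, 0.109 and 1.80 RPKM in the middle-aged libraries. Itgam, its partner in myeloid cells, had 0.212, 0.335 and 1.30 RPKM in the VCAM1-negative libraries, 0.00991 and 0.452 RPKM in the VCAM1-low libraries, 0.0107, 0.0264 and 3.90 RPKM in the VCAM1-high libraries, and 0, 0.00958 and 0.285 RPKM in the middle-aged libraries. VCAM1-high replicate 3 was highest for both and for Itgax (0.607 RPKM), but not for the leukocyte chains Itgal (at most 0.916 RPKM, in VCAM1-negative replicate 3), Itgad (at most 0.0631 RPKM, in VCAM1-high replicate 1) and Itgae (at most 0.0856 RPKM, in VCAM1-high replicate 2), and within each group of 3 libraries replicate 3 was the highest for Itgb2 and Itgam. The macrophage markers summed to 77.5, 89.7 and 213 RPKM in the VCAM1-negative libraries, 37.1 and 52.5 RPKM in the VCAM1-low libraries, 2.79, 16.5 and 859.95 RPKM in the VCAM1-high libraries, and 27.4, 5.38 and 139 RPKM in the middle-aged libraries. Up to 4 of the 10 were at 0 in a VCAM1-high library and up to 2 in a middle-aged one. Neutrophil markers (6 genes) were also highest in VCAM1-high replicate 3, with a sum of 57.6 RPKM. None of Itga6, Lama4, Itga1, Itgb2 and Itgam passed in any comparison between 2 groups without a block, and the part of other cells in their levels was not tested.

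**Figure D5:**
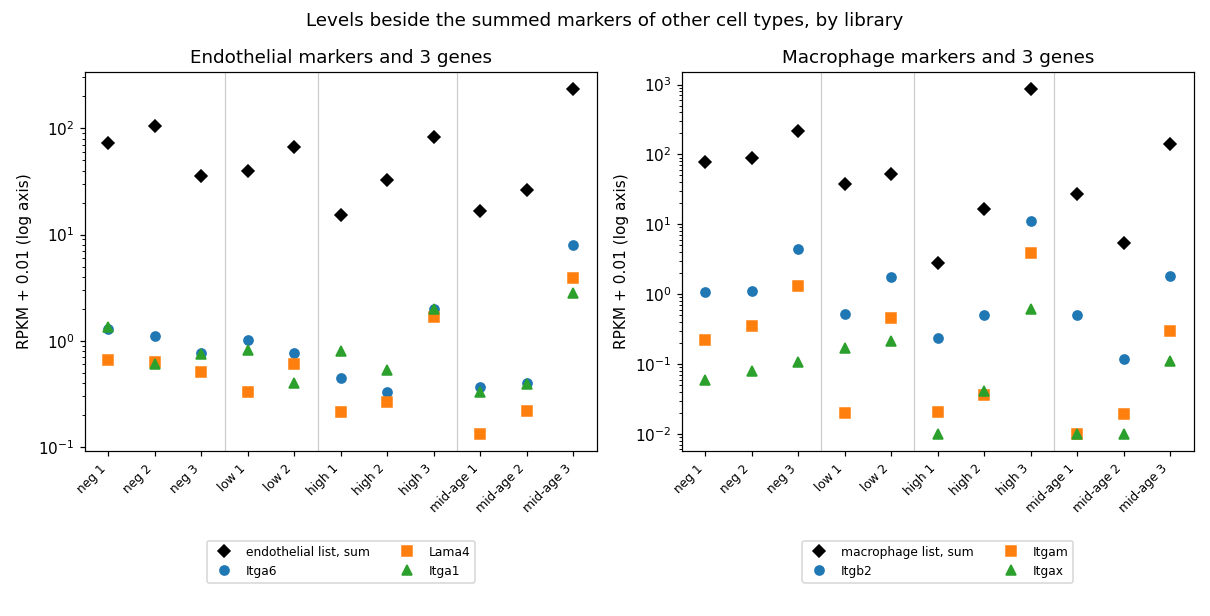
RPKM + 0.01 (vertical log axes) of Itga6, Lama4 and Itga1 beside the summed endothelial markers (left), and of Itgb2, Itgam and Itgax beside the summed macrophage markers (right), in each library. The endothelial sum and its 3 genes are highest in middle-aged replicate 3 (233 RPKM for the sum), and the macrophage sum and its 3 genes are highest in VCAM1-high replicate 3 (859.95 RPKM for the sum).

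Genes that work with these receptors were read from 6 further lists in the comparison of VCAM1-negative with middle-aged cells. Of 20 tested integrin adaptor and focal adhesion genes 2 rose and 4 fell, beside 7.06% of all genes higher and 7.38% lower, the smallest p-values belonging to Lims1 (log2 difference -0.88), Fermt2 (-0.87), Rsu1 (-1.37) and Tns1 (0.90). Fermt2 encodes kindlin-2, which activates integrins, Lims1 and Rsu1 encode members of the complex around integrin-linked kinase, and Tns1 encodes tensin. Of 7 tetraspanin genes whose products bind integrins, Cd81 fell (-0.90) and none rose. The median of the adaptor list was -0.12, beside -0.02 for all genes.

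On the dystroglycan side, 3 of 13 tested genes of the dystrophin-glycoprotein complex rose and 2 fell (7.06% and 7.38% of all genes). Sgca (-1.18) and Sspn (-1.25), which encode alpha-sarcoglycan and sarcospan of the same membrane complex, fell. Dtna, the alpha-dystrobrevin gene, was among those that rose (1.48, limma adjusted p = 0.04998, named after its values were seen). Myofibre markers were higher in the same libraries (9 of 10 tested), and their part in these differences was not tested. Dmd, the dystrophin gene, had a log2 difference of -0.01 ± 0.21 (SE). Of the 16 tested genes that build the sugar chains through which dystroglycan binds laminin, 4 fell and none rose, beside 7.38% of all genes lower, among them B4gat1 (-1.44) and Dpm3 (-0.99). The median of that list was -0.59, beside -0.02 for all genes.

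Other basement membrane genes gave 1 that rose and 6 that fell among 16 tested, beside 7.06% of all genes higher and 7.38% lower, with a median of -0.56 beside -0.02 for all genes. Sparc, which encodes a protein that binds type IV collagen, fell (-3.33), as did Col4a2 (-1.60), a type IV collagen chain, and Pxdn (-1.45), the peroxidase that cross-links it. Ntn4, which encodes netrin-4, a protein that binds laminin gamma chains, rose, with 213, 193 and 251 RPKM in the VCAM1-negative libraries, 158 and 207 RPKM in the VCAM1-low libraries, 135, 246 and 165 RPKM in the VCAM1-high libraries, and 48.2, 72.2 and 52.2 RPKM in the middle-aged libraries. It also rose in VCAM1-high cells against middle-aged cells (1.62 ± 0.25, SE, limma adjusted p = 0.0202), the single call of its list there. With the replicate block in all 11 libraries Ntn4 rose and Sparc (-2.01, adjusted p = 0.01003), Pxdn (-0.95, adjusted p = 0.0367) and Col15a1, a collagen chain of basement membrane zones (-1.22, adjusted p = 0.0385), fell in that comparison, beside 4.17% of all genes higher and 2.81% lower. Among 16 other integrin ligands 1 rose and 3 fell in VCAM1-negative cells (7.06% and 7.38% of all genes), Icam1 (1.72), Vcam1 (-1.98), Emilin1 (-2.02) and Fbn1 (-1.27). In VCAM1-high against middle-aged cells, Icam1 (1.52) and Spp1 (4.56), the osteopontin gene, rose and none of that list fell without the block. With the block Emilin1 (-0.96, limma adjusted p = 0.0310) and Fbn1 (-0.76, adjusted p = 0.0367) fell as well. This comparison holds VCAM1-high replicate 3 and middle-aged replicate 3, which stood apart in macrophage and endothelial markers. For genes of the further lists no values with libraries left out are given, and the part of other cells was not tested. Vcam1 encodes the protein on which the cells were gated, so its value is no independent result.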

How the data were processed

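The authors deposited RPKM values for all 11 libraries in 1 table. Among the tools in the submitters' processing notes are STAR 2.7.5b, Bowtie2 2.1.0, SAMtools 0.1.19 and cutadapt 3.1, and the build is GRCm39. No source used here states the counting tool, its strand setting or the gene lengths. RPKM scales reads by gene length and library total, so a few abundant genes can move all others. Values were tested as log2(RPKM + 1) with limma 3.58.1 (trend, R 4.3.3) in 1 model of the 4 groups with 7 residual degrees of freedom. Genes with at least 1 RPKM in at least 2 libraries (11568 genes) were tested, p-values were adjusted by Benjamini-Hochberg over all of them, and 0.05 was the threshold, with no limit on fold. Fold changes on this scale understate those of low genes. The fit without a block was tested on simulated data with independent libraries and shifts in the VCAM1-negative group alone. That simulation covers neither libraries that deviate together nor the replicate block. Depth was estimated from the steps of low values in 3428 genes with a single transcript. Between 63.8% and 72.5% of those values fell within 0.1 reads of a whole number, against 20% by chance at a depth fixed beforehand. The depth was chosen for its fit to the same values, so this share is no independent check of it. With the rest off whole numbers, reads were not recovered and no count test was run.

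Replicate numbers were checked by the correlation of deviations from group means. It was 0.414, 0.581 and 0.403 for VCAM1-negative with VCAM1-high libraries, 0.523 and 0.569 for VCAM1-negative with VCAM1-low, 0.486 and 0.509 for VCAM1-low with VCAM1-high, and 0.211, 0.332 and 0.554 for VCAM1-high with middle-aged libraries. Where 3 pairs were all above 0.1 the blocked value stands beside a result whose call it changes.

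The genes, lists and tests were chosen with earlier results of these data known. Named genes were a fixed set of 24, those called in a main comparison with or without the block, the 5 smallest p-values of each main comparison, and at most 4 per further list by p-value. Itga2b, Itgb2, Itgam, Lamc3, Dtna, Col15a1 and a few undetected partners were added for their levels. Dmd was named as well, though its p-value was not among the smallest of its list. Exon overlaps (14 of the 42 genes overlap another gene, 11 on the opposite strand) came from a GENCODE annotation, and promoters from RefSeq, whose table holds 27 of the 42 genes. Figures were drawn with matplotlib 3.10.9. A few genes that the rule for named genes covers are not reported here, and they are counted in the totals.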

Additional observations from a re-analysis of the deposited data

How the results depend on the processing

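Alternatives were another pseudocount (0.1), no filter, a filter at a mean of 5 RPKM, 2 rescalings, models of the compared groups alone, the replicate block, all replicate-3 libraries out, and each library out in turn. Leaving out both the middle-aged and the VCAM1-high replicate 3, and omissions under the block, were added after seeing the data. No value for a single gene recomputed under them changed sign. Of the values for single genes outside the omissions of 1 library, 302 stayed on their side of the threshold, 37 lost the call and 29 gained it. The causes were not tested.

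VCAM1-negative against middle-aged cells gave 8 calls, 1 without the filter, 5 after rescaling to equal sums, and 4 without replicate 3 of every group. Libraries there share only a number (correlations -0.0246, 0.033 and 0.0808), and the replicate block gave 13, beside 31.6% of all genes. Leaving out 1 library gave 0 to 9, beside 340 to 1821 calls over all genes (1671 with all libraries). VCAM1-high against middle-aged cells gave 0 calls, and 1 under the replicate block, beside 6.98% of all genes. With 1 library out it gave 0 to 1 (0 to 5 with the block). Over all genes, 1 library out gave 17 to 238 calls without the block (70 with all libraries). VCAM1-negative against VCAM1-high cells gave 0 calls, and 2 under the block in 8 geriatric libraries, beside 4.17% of all genes. With 1 library out it gave 0 (0 to 2 with that block). Over all genes, 1 library out gave 0 to 129 calls without the block. VCAM1-low against middle-aged cells (correlations 0.147 and 0.0318) gave 2 calls, and 0 without the filter or without both replicates 3. It gave 1 after rescaling to equal sums or without all replicate-3 libraries, and 7 under the block, beside 15.8% of all genes. With 1 library out it gave 0 to 6, beside 1 to 802 calls over all genes (475 with all libraries). The geriatric mean gave 8 calls, 3 without the filter, and 14 under the block, beside 30.9% of all genes. With 1 library out it gave 0 to 12, beside 515 to 2245 calls over all genes (1833 with all libraries). The F test gave 0 calls, 1 at a mean of 5 RPKM, and 7 under the block, beside 17.5% of all genes. With 1 library out it gave 0 to 3, beside 39 to 614 calls over all genes (384 with all libraries). Depth limits the genes near 1 RPKM and below.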
